A study of Mus musculus with 12 samples.

Results

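Small leucine-rich proteoglycans (SLRPs) are secreted proteins of the extracellular matrix, and 9 of them were followed here by gene name: Dcn, Bgn, Aspn, Lum, Fmod, Prelp, Omd, Ogn and Podn. They are 9 of the 55679 genes in the gene table, and they were chosen by name, with earlier results of these data known. RNA was sequenced from whole lung and whole heart of 3 WT and 3 KO mice for Adam19, all males of the 129S6/SvEvTac strain and aged 9 to 13 weeks per the study's methods. Each mouse gave 1 library of each tissue, so there were 12 libraries in 4 groups of 3. The KO mice were homozygous for the Adam19-tdTomato allele, in which a tdTomato construct with an antisense hygromycin resistance cassette takes the place of exons 6 and 7, and the WT mice carried neither. The WT and KO mice have different prefixes in their identifiers, and what a prefix marks is not given in the sources used here. Prefix and genotype therefore cannot be told apart. Prefixes also differ within each genotype: WT replicate 3 and KO replicate 1 each have a prefix that no other mouse shares.

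An SLRP has a protein core of leucine-rich repeats, folded into a curved solenoid, and many members carry chains of chondroitin, dermatan or keratan sulfate. The cores bind fibrillar collagen and govern how fibrils assemble and how wide they grow, and several members also hold growth factors of the TGF-β family in the matrix or bind receptors on the cell surface. In lung and heart they are products mainly of fibroblasts and other stromal cells. Adam19 encodes a membrane-bound metalloprotease that sheds proteins from the cell surface.

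Several of the genes lie side by side in the mouse genome (GRCm39, GENCODE vM39). Dcn (chr10:97315275-97358155) and Lum (chr10:97400990-97408577) lie on the same strand, 42834 bases apart. Aspn (chr13:49697609-49721057), Omd (chr13:49735938-49746298) and Ogn (chr13:49761349-49780412) form a row on the forward strand, with gaps of 14880 and 15050 bases. Prelp (chr1:133837335-133857971, reverse strand) and Fmod (chr1:133964992-133976015, forward strand) are divergent neighbours, 107020 bases apart. Bgn (chrX:72527208-72539541) and Podn (chr4:107871988-107889534) have no other member beside them. The main transcripts of Dcn, Bgn and Aspn, the class I members, each have 8 exons, while those of the class II members Lum, Fmod, Prelp and Omd each have 3. Ogn has 7 exons and Podn has 13.

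Promoter sequence is shown for 3 genes, Prelp and Fmod because these neighbours differed between lung and heart in opposite directions, and Bgn as a class I gene that was higher in the lung. Each is the 250 bases before the transcription start in the RefSeq table (GRCm38.p6), matched at a single place in GRCm39. The Prelp window is chr1:133849140-133849389 on the reverse strand and shares 13 bases with exons of GENCODE vM39, and the RefSeq start lies 8832 bases inside the GENCODE gene. The Fmod window is chr1:133964742-133964991 and the Bgn window is chrX:72526957-72527206, both on the forward strand and outside annotated exons. Capitals mark the letters CCAAT and GGGCGG on either strand, so a GGGCGG on the reverse strand reads CCGCCC, and the last 2 of the 3 in Bgn overlap.
Prelp: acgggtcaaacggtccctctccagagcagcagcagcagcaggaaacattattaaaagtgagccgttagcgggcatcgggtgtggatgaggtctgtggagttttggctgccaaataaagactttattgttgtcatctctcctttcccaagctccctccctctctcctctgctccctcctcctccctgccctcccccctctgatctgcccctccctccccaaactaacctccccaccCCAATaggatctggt
Fmod: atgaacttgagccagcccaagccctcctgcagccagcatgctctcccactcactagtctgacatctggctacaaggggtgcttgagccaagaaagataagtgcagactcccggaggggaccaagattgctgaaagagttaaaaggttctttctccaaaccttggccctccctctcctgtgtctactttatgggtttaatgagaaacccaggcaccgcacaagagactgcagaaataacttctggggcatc
Bgn: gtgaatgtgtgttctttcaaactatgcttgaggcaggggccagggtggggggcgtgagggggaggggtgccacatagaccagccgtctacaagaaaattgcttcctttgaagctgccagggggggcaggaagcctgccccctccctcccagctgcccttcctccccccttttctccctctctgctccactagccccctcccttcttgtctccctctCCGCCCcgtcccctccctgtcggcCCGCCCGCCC

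Each motif was searched on both strands of the 250 bases. Prelp held 1 CCAAT, which 33.8% of 32851 RefSeq promoter windows also held, and Bgn held 3 GGGCGG, found in 32.7% of windows. Fmod held neither. The TATA-type letters TATAAA, present in 12.4% of windows, occurred in none of these 3 windows and 2 times each in those of Aspn and Ogn, where the 2 matches of Ogn overlap. CANNTG, found in 66.2% of windows, occurred 1 time in Fmod and in Bgn and was not found in Prelp. TGACTCA (4.5% of windows) occurred in no window of a member, and CATTCC (12.6%) occurred 1 time, in Ogn. In all, 7 of the 9 members had 8 windows in the table. The G and C content was 55.6% for Prelp, 51.2% for Fmod and 64.4% for Bgn.

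The libraries held 17674788 to 35862932 estimated counts. The deposited gene values are on a log2 scale, on which a difference of 1 is a 2-fold change. For most genes with 1 transcript they differ from the transcript values by 1 constant per library. That constant was inferred here from the deposited values. Adam19 was 9.12 to 9.41 in WT lungs and 3.21 to 4.44 in KO lungs, and 9.17 to 10.27 in WT hearts and 6.01 to 6.67 in KO hearts. Its KO value was lower by 5.51 in the lung and 3.14 in the heart (adjusted p = 0.000186 and 0.00558, limma). The tissue labels were checked on markers. The log2 of the summed level of 8 lung epithelium markers was 18.84 to 19.13 in lungs and 6.40 to 10.72 in hearts, and that of 8 heart muscle markers was 21.66 to 21.92 in hearts and 14.13 to 15.25 in lungs. A total of 10 fibroblast markers were all detected in both tissues and summed to 13.88 to 14.05 in lungs and 13.60 to 13.87 in hearts. Single markers differed between WT lung and heart by −3.57 to 2.30, with 6 of 10 higher in the lung. Pdgfra had means of 13.05 in WT lungs and 11.24 in WT hearts, and Col15a1 of 7.75 and 11.33. The close sums therefore do not show an equal fibroblast content.

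One heart library stood apart in these genes. The heart of WT replicate 3 was the lowest of the 6 hearts in 8 of the 9 members, all but Prelp, and its median difference from the mean of the other 5 hearts was −0.63 over the members and −0.02 over all genes tested. It was the shallowest heart library, at 18392292 estimated counts, and it came from the only WT mouse with its identifier prefix. Its fibroblast marker sum was 13.68, inside the range of the other hearts. Its blood marker sum of 15.81 was the highest of the hearts and its adipocyte marker sum of 13.86 the lowest. The part of these sums, of the depth or of the prefix in the low values was not tested. Values without this library are given beside the results that it moved most. Among the lungs no library was the lowest in so many members. The lowest value fell to a WT library in 9 of 9 members, 3 for each of the 3 WT mice, and the share over all genes was not computed. The lung of KO replicate 2 was the highest lung in 5 of 9 members. Its median difference from the mean of the other 5 lungs was 0.294 over the members and 0.012 over all genes tested.

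**Figure D1:**
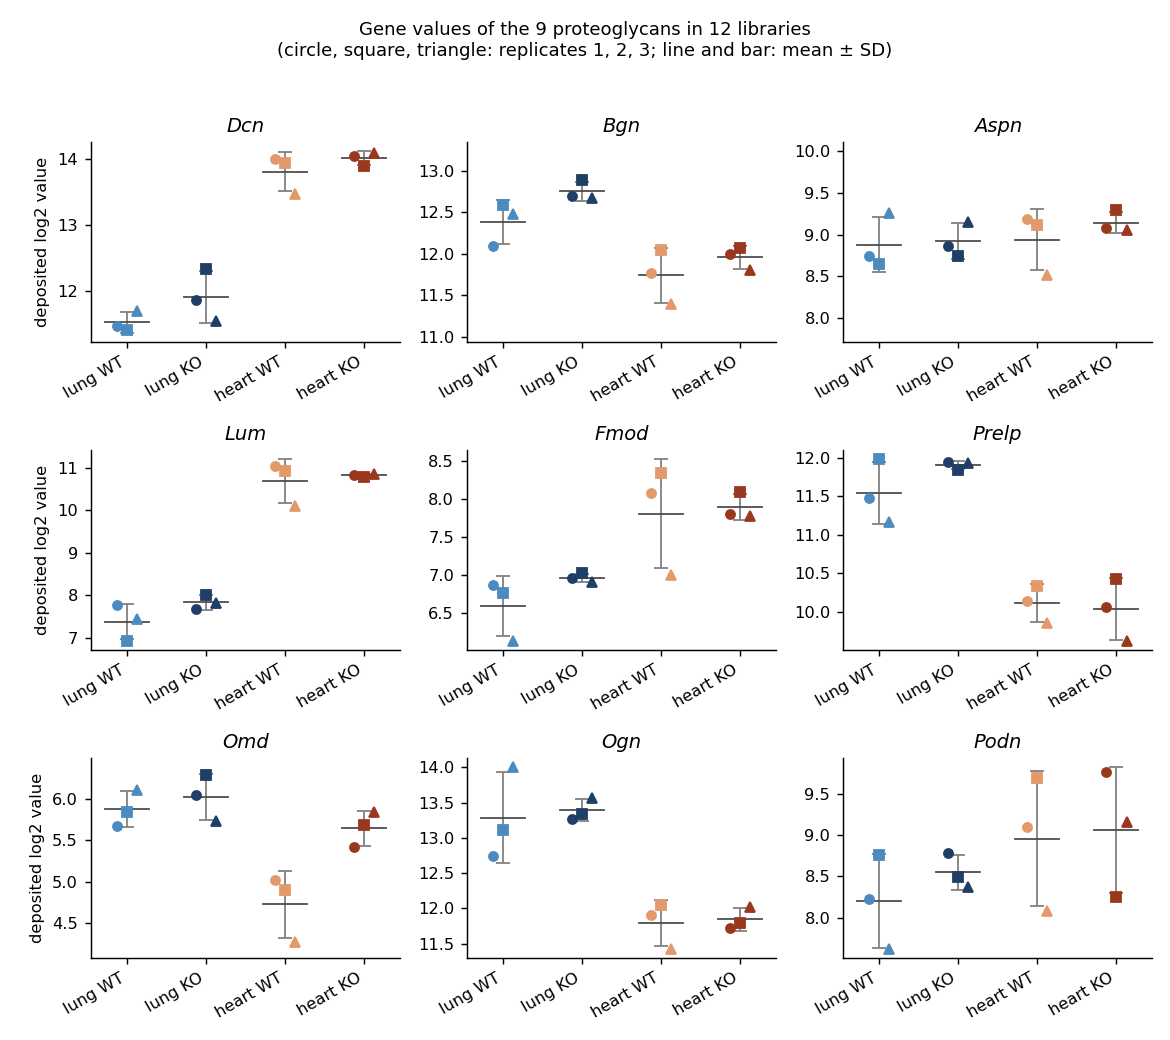
Deposited log2 gene values (vertical axis) of the 9 proteoglycan genes in the 4 groups (horizontal axis), 1 panel per gene with its own axis range; points are libraries (circle, square and triangle for replicates 1, 2 and 3), and the line and bar are the mean ± SD of 3 libraries. Dcn, Lum, Bgn, Prelp and Ogn separate by tissue, and heart WT replicate 3 (triangle) is the lowest heart in 8 of 9 panels.

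Which SLRPs distinguish lung from heart was asked first. In WT mice, 6 of the 9 members passed the thresholds, which were an adjusted p below 0.05, a change of 1.5-fold or more, and a mean of at least 6 in the higher group. Lum, Dcn and Fmod were lower in the lung, by 3.30, 2.28 and 1.21 on the log2 scale, while Ogn, Prelp and Bgn were higher in the lung, by 1.49, 1.43 and 0.64. Among all 17666 genes tested, 49.4% passed, with 29.3% higher in the lung and 20.1% higher in the heart, which is the background for the count of 6 of 9. The members' median difference was −0.06, beside 0.32 over all genes tested. In KO mice 6 of 9 passed as well, against a background of 49.6% (28.7% higher in the lung, 20.9% higher in the heart), and they were the same genes in the same directions: 3 higher in the lung and 3 higher in the heart. These are whole organs, in which fewer cells of a type and less RNA per cell cannot be told apart.

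Decorin, the product of Dcn, binds collagen fibrils and sequesters TGF-β. Its gene value was 11.47, 11.41 and 11.71 in WT lungs and 11.87, 12.34 and 11.55 in KO lungs. The hearts gave 14.01, 13.95 and 13.48 in WT and 14.06, 13.90 and 14.09 in KO. Every heart was above every lung. The lung minus heart difference was −2.28 in WT (SE 0.20, adjusted p = 5.52e-07, limma), a 4.87-fold difference, and −2.10 in KO (SE 0.20, adjusted p = 1.25e-06). Within mice, the lung was lower than the heart in 6 of 6, by 1.56 to 2.54.

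Lumican, encoded by the neighbouring gene Lum, is a keratan sulfate proteoglycan best known for the regular collagen spacing of the cornea. It showed the widest gap of the 9 genes. The lungs gave 7.76, 6.92 and 7.45 in WT and 7.66, 7.997 and 7.82 in KO, and the hearts gave 11.04, 10.91 and 10.09 in WT and 10.82, 10.78 and 10.86 in KO. The groups of the 2 tissues did not overlap. The difference was −3.30 in WT (SE 0.25, 9.88-fold, adjusted p = 1.32e-07) and −2.99 in KO (SE 0.25, 7.96-fold, adjusted p = 3.49e-07), both from limma.

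Fibromodulin, the product of Fmod, occupies collagen sites close to those of lumican and steers fibril maturation in tendon. WT lungs gave 6.87, 6.77 and 6.14 and KO lungs 6.96, 7.02 and 6.91. WT hearts gave 8.07, 8.35 and 6.998 and KO hearts 7.81, 8.09 and 7.78. All lungs but 1 were below all hearts: the exception was KO replicate 2, whose 7.02 lay just above the 6.998 of the heart of WT replicate 3. The difference was −1.21 in WT (SE 0.31, adjusted p = 0.00395, limma) and −0.93 in KO (SE 0.31, adjusted p = 0.0184). The KO call was lost without KO replicate 1, 2 or 3 (adjusted p = 0.0718, 0.0971 and 0.0731), while the differences stayed at −0.97, −0.86 and −0.96. Scaling to the library totals without Rn7s1 left −0.47 in WT and −0.19 in KO, neither past the thresholds. Without the heart of WT replicate 3 the WT difference was −1.62.

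Prelp, the other gene at this locus, encodes a protein with a basic N-terminal region that binds heparan sulfate and anchors basement membranes to collagen. It ran the opposite way to Fmod. Its lungs gave 11.48, 11.98 and 11.17 in WT and 11.95, 11.85 and 11.93 in KO. Its hearts gave 10.14, 10.34 and 9.85 in WT and 10.06, 10.43 and 9.62 in KO. The tissues did not overlap, and the lung was higher by 1.43 in WT (SE 0.23, 2.69-fold, adjusted p = 0.000105) and 1.87 in KO (SE 0.23, 3.66-fold, adjusted p = 1.02e-05), by limma. It was higher in the lung of 6 of 6 mice.

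Osteoglycin, or mimecan, the product of Ogn, is a class III member with keratan sulfate that is found in bone, cornea and vessel walls. WT lungs gave 12.74, 13.11 and 13.998 and KO lungs 13.27, 13.34 and 13.57. WT hearts gave 11.90, 12.04 and 11.43 and KO hearts 11.72, 11.79 and 12.02. Every lung was above every heart. The lung was higher by 1.49 in WT (SE 0.27, adjusted p = 0.000293) and by 1.55 in KO (SE 0.27, adjusted p = 0.000224), by limma. The WT mice spread from 0.84 to 2.57, with the largest difference in WT replicate 3, whose lung was the highest and whose heart the lowest of the 12 libraries. The KO mice lay close together, at 1.55 with an SD of 0.003. Without WT replicate 3 the WT difference was 0.95, and without its heart alone it was 1.31.

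Biglycan, the product of Bgn, is the closest relative of decorin, carries chondroitin or dermatan sulfate chains and can signal through TLR2 and TLR4 when released from the matrix. WT lungs gave 12.09, 12.58 and 12.48 and KO lungs 12.69, 12.88 and 12.67. WT hearts gave 11.77, 12.05 and 11.39 and KO hearts 11.999, 12.07 and 11.80. The lowest lung and the highest heart lay next to each other, at 12.09 and 12.07. The lung was higher by 0.64 in WT (SE 0.18, 1.56-fold, adjusted p = 0.00644) and by 0.79 in KO (SE 0.18, 1.73-fold, adjusted p = 0.00169), by limma. The WT difference was the smallest that passed: it was 0.43 without WT replicate 3 (adjusted p = 0.0639), 0.47 without the heart of that mouse (adjusted p = 0.0336, under the fold threshold) and 0.39 after median scaling (adjusted p = 0.0694), and none of these passed. Bgn was higher in the lung of 6 of 6 mice.

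Asporin (Aspn), a class I member with an aspartate-rich N terminus that binds calcium and TGF-β, was close in the 2 tissues. The lungs ran from 8.64 to 9.26 and the hearts from 8.52 to 9.29. The lung minus heart difference was −0.06 in WT (95% interval −0.52 to 0.40) and −0.22 in KO (−0.68 to 0.24), and 2 of 6 mice had the higher value in the lung. After scaling to the library totals the differences were 0.69 in WT (adjusted p = 0.0046, limma) and 0.52 in KO (adjusted p = 0.023), so the direction depended on the scaling.

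Osteomodulin, or osteoadherin (Omd), an acidic class II member found in bone, was the lowest of the 9 genes. WT lungs gave 5.68, 5.84 and 6.11 and KO lungs 6.05, 6.29 and 5.74. WT hearts gave 5.02, 4.90 and 4.27 and KO hearts 5.42, 5.68 and 5.84. The WT groups did not overlap, and the KO groups did. The WT lung was higher by 1.14 (SE 0.28, adjusted p = 0.00318, limma), which did not pass because the highest group mean was 5.87, under 6. It was 0.91 without the heart of WT replicate 3. The KO difference was 0.38 (SE 0.28, adjusted p = 0.253), and it passed only after total scaling (1.12, adjusted p = 0.00234).

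Podocan, the product of Podn, is the class V member, first described in the kidney and present in vascular smooth muscle. WT lungs gave 8.23, 8.76 and 7.62 and KO lungs 8.79, 8.49 and 8.37. WT hearts gave 9.11, 9.70 and 8.08 and KO hearts 9.77, 8.25 and 9.16. The tissues overlapped widely. The difference was −0.76 in WT (SE 0.43, adjusted p = 0.139, limma) and −0.51 in KO (adjusted p = 0.313), and after total scaling the values were −0.015 in WT and 0.23 in KO, the latter with its direction turned. With the mouse as a replicate block the WT difference passed (adjusted p = 0.0229), and without the heart of WT replicate 3 it was −1.20 and passed as well (adjusted p = 0.0239).

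**Figure D2:**
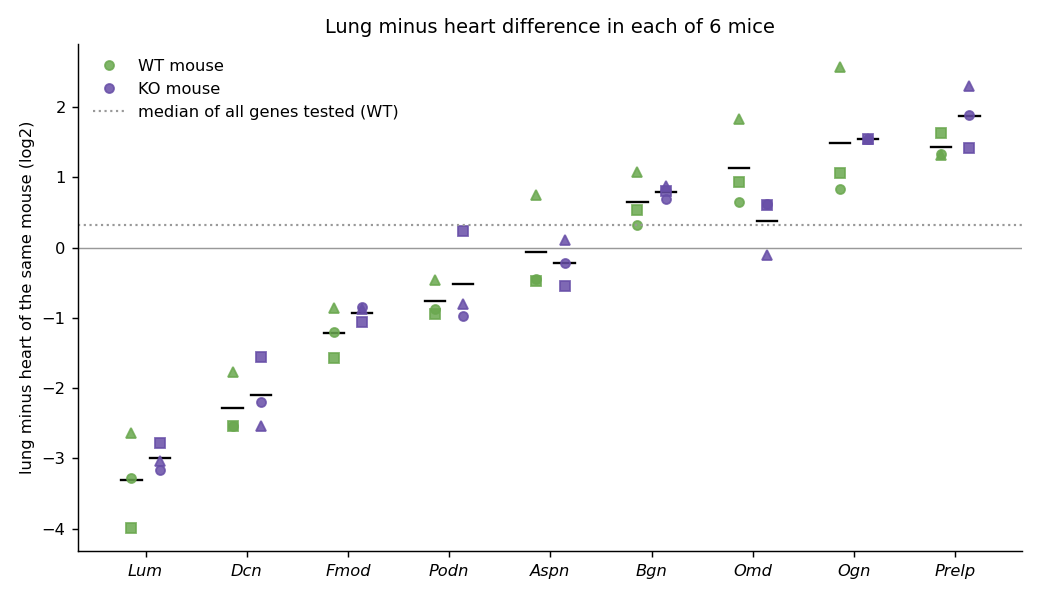
Lung minus heart difference of the deposited log2 value within each mouse (vertical axis) for the 9 genes (horizontal axis, ordered by mean), with WT mice in green and KO mice in purple, circle, square and triangle for replicates 1, 2 and 3, and black lines for the group means; the dotted line is the median of all genes tested in WT, 0.32. Lum, Dcn and Fmod lie below 0 in 6 of 6 mice, and Bgn, Ogn and Prelp above 0 in 6 of 6.

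The median of all genes tested was itself off 0 between the tissues, at 0.32 in WT and 0.29 in KO, and it moved with the scaling. It was 0.07 and 0.10 after median scaling and 1.06 and 1.02 after scaling to library totals without Rn7s1, a 7SL RNA gene that took 2.1% to 34.0% of the counts of lung libraries. The share of WT calls that were higher in the lung was 59.4% as deposited, 49.4% after median scaling and 80.2% after total scaling. Relative to the all-gene median, WT differences were −3.63 for Lum, −2.61 for Dcn, −1.54 for Fmod, −1.08 for Podn, −0.38 for Aspn, 0.32 for Bgn, 0.82 for Omd, 1.11 for Prelp and 1.17 for Ogn. Of the 6 genes that passed, Lum, Dcn, Ogn and Prelp passed under each of the 3 scalings in both genotypes.

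Levels of different genes can be set side by side only per length, and the order depended on which length was used. Per kilobase of transcript, WT lungs held 2330 ± 426 scaled estimated counts of Bgn, 2065 ± 969.9 of Ogn, 709 ± 205 of Prelp and 494 ± 56.7 of Dcn (SD, n = 3). Bgn and Ogn did not differ beyond their spread. Dividing by the longest transcript of each gene gave 2036 ± 403 for Bgn and 2065 ± 969.9 for Ogn. ENSMUST00000169489.2 of Bgn, with 7.6% to 46.1% of its counts in lungs, has no length in GENCODE vM39. It was given the count-weighted mean length of the other Bgn transcripts, and ENSMUST00000044248.14 of Podn was treated likewise. WT hearts held 2424 ± 461 of Dcn, 1464 ± 386 of Bgn, 695 ± 147 of Ogn and 693 ± 220.5 of Lum. Dcn ranked first in the heart and at position 4 in the lung, and Lum was at position 4 in the heart and 7 in the lung. In WT hearts the values of Ogn and Lum overlapped.

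At the low end, WT lungs held 202 ± 49.1 per kilobase of Aspn, 101 ± 42.2 of Podn, 68.9 ± 19.3 of Lum, 31.3 ± 7.96 of Fmod and 27.25 ± 4.61 of Omd. The ranges of Fmod and Omd overlapped, and so did those of Lum and Podn. WT hearts held 259 ± 43.0 of Prelp, 210.5 ± 49.6 of Aspn, 192 ± 102 of Podn, 76.7 ± 32.7 of Fmod and 13.5 ± 5.43 of Omd, and the ranges of Prelp, Aspn and Podn overlapped. Per kilobase of coding sequence, the highest gene in the WT lung was Ogn (11950 ± 5614), followed by Bgn (4904 ± 970.4). The annotated Ogn transcript has 5174 bases, of which 894 are coding, while that of Bgn has 2421, of which 1107 are coding. Dcn stayed first in the heart (13710 ± 2624).

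**Figure D3:**
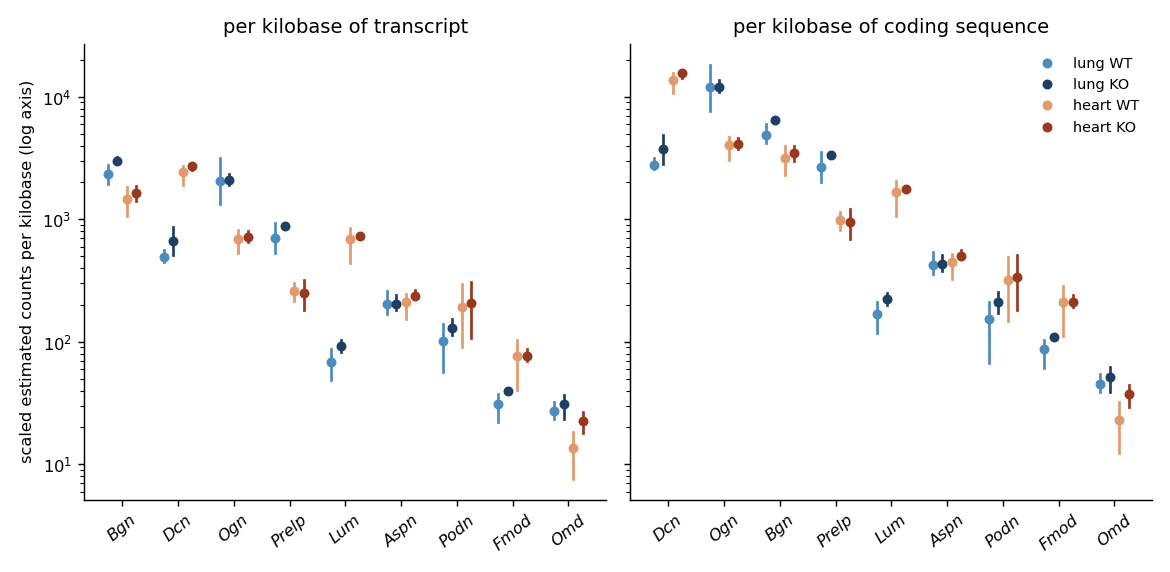
Scaled estimated counts per kilobase (log axis) of each gene in the 4 groups, divided by transcript length at left and by coding length at right; points are means of 3 libraries and lines run from the lowest to the highest library. Dcn is first in the hearts on both scales, while first place in the WT lung passes from Bgn to Ogn with the length used, and Omd is last throughout.

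Whether loss of Adam19 changed SLRP expression was asked next. In the lung, 0 of 9 members passed the thresholds with limma, 0 with limma-voom, and 0 had an unadjusted p under 0.05; among all 16551 genes tested, 0.0665% passed. All 9 differences were above 0, from 0.04 for Aspn to 0.45 for Lum, with a median of 0.37, beside 0.01 over all genes tested, of which 51.6% were above 0. The members share libraries and are not 9 independent observations. Adjusted p ran from 0.836 to 0.979.

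Among the KO and WT lungs, 2 members did not overlap, both with KO above WT, where 6.41% of all genes tested had every KO lung above every WT lung. For Bgn the lowest KO lung was 12.67 and the highest WT lung 12.58, and the KO minus WT difference was 0.37 (95% interval −0.02 to 0.76, adjusted p = 0.836, limma). For Fmod the bounds were 6.91 and 6.87, and the difference was 0.37 (−0.19 to 0.93, adjusted p = 0.841). The exact permutation test of 3 against 3 gave its smallest possible p, 0.1, for both. The widest intervals belonged to Ogn, 0.11 (−0.56 to 0.78), and Podn, 0.35 (−0.30 to 0.99), and Lum stood at 0.45 (−0.104 to 1.005). Dcn was 0.39 higher in KO (−0.09 to 0.87) and Prelp 0.37 (−0.10 to 0.84). Each value moved by over 1.5 times without some single library. The lowest values were 0.18 for Dcn (without KO replicate 2), 0.22 for Bgn (without WT replicate 1), 0.02 for Omd (without KO replicate 2) and 0.225 for Lum (without WT replicate 2). Without WT replicate 3 they were 0.14 for Fmod, 0.18 for Prelp and 0.055 for Podn. The direction of Aspn turned without WT replicate 1 or 2 or KO replicate 3, and that of Ogn without WT replicate 1.

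Some summed marker levels differed between the same lungs. The fibroblast sum was 13.91 to 14.05 in WT and 13.88 to 14.05 in KO. The mesothelium sum was 12.78 to 12.85 in WT and 12.88 to 12.91 in KO, without overlap. The smooth muscle and pericyte sum was 13.80 to 13.94 in WT and 13.92 to 14.26 in KO, and the adipocyte sum was 11.04 to 12.49 in WT and 11.53 to 13.12 in KO. The skeletal muscle sum was lower in KO without overlap, at 9.31 to 11.96 in WT and 8.12 to 9.03 in KO. The heart muscle sum was 14.68 to 15.25 in WT and 14.13 to 14.68 in KO. The cartilage and tendon sum was 7.61 to 8.78 in WT and 8.03 to 9.52 in KO, the blood sum 15.15 to 16.75 and 13.59 to 17.21, the endothelium sum 15.72 to 15.90 and 15.76 to 15.93, and the lung epithelium sum 18.84 to 19.13 and 19.02 to 19.12. Of 78 marker genes tested in the lung, 0 passed with limma or limma-voom and 11 had an unadjusted p under 0.05. The part of any of these in the values above was not tested.

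In the heart, 0 of 9 members passed with limma and 0 with limma-voom, against 0.0850% of 15303 genes tested, and 1 member had an unadjusted p under 0.05. Differences were above 0 in 8 of 9 members and ran from −0.08 for Prelp to 0.91 for Omd, with a median of 0.14, beside 0.03 over all genes tested, of which 55.0% were above 0. Without the heart of WT replicate 3, those of Aspn, Lum, Fmod, Ogn and Podn fell below 0, to −0.005, −0.16, −0.32, −0.13 and −0.34. Dcn fell from 0.204 to 0.035, Bgn from 0.22 to 0.049 and Prelp from −0.076 to −0.205 when that library was left out. Of the 9 intervals those of Dcn (−0.18 to 0.59), Bgn (−0.17 to 0.61) and Ogn (−0.34 to 0.45) were the narrowest, and that of Podn (−0.93 to 1.13) the widest.

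Omd was the member with the unadjusted p under 0.05, and the only one whose KO and WT hearts did not overlap; 7.82% of all genes tested had every KO heart above every WT heart. KO hearts were at 5.42 to 5.84 and WT hearts at 4.27 to 5.02, a difference of 0.91 (95% interval 0.19 to 1.63, unadjusted p = 0.0186, adjusted p = 0.609, limma). The exact permutation p was 0.1, the smallest possible. The difference was 0.68 without the heart of WT replicate 3, and it did not pass under any alternative that was run. With the transcripts of Omd summed in place of the deposited gene value, the heart of WT replicate 2 was at 5.42 and the lowest KO heart at 5.26, so the groups overlapped. Its highest group mean of 5.65 was also under the threshold of 6. The summed level of 11 cartilage and tendon markers was 9.19 to 9.59 in WT hearts and 9.72 to 10.19 in KO hearts. Matn1, Matn3 and Snorc were at 0 in all hearts. Only 5 of the 11 passed the filter in the heart, of which 4 had a KO minus WT difference above 0. Comp had the highest means of the list, 8.31 in WT and 9.1 in KO hearts, while Scx was at 7.52 and 7.41. Of 72 marker genes of all 10 lists tested in the heart, 0 passed with limma or limma-voom and 10 had an unadjusted p under 0.05. The smooth muscle and pericyte sum also separated, at 15.49 to 15.51 in WT and 15.65 to 15.76 in KO, while the fibroblast sum did not (13.64 to 13.84 and 13.60 to 13.87). Their part in the Omd difference was not tested.

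**Figure D4:**
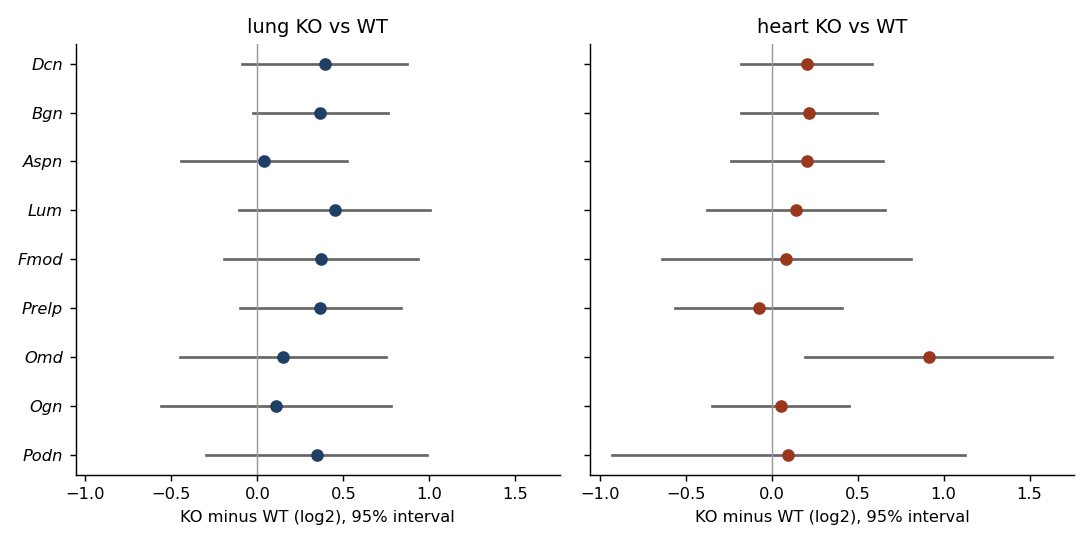
KO minus WT difference of the log2 gene value (horizontal axis) for the 9 genes (vertical axis) in the lung (left) and heart (right); points are limma estimates from 3 KO and 3 WT libraries and lines are 95% intervals. All 9 lung intervals include 0, and in the heart that of Omd, 0.19 to 1.63, lies above 0, with an adjusted p of 0.609.

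Whether the genotype difference was unequal in the 2 tissues was tested as an interaction. With limma and with limma-voom 0 of 9 members passed, against 0.00566% of 17666 genes, and 0 had an unadjusted p under 0.05. The lung difference minus the heart difference ran from −0.76 for Omd (SE 0.40, unadjusted p = 0.0805, adjusted p = 0.654) to 0.44 for Prelp (SE 0.32, adjusted p = 0.741). For the 2 most abundant class I genes it was 0.19 for Dcn (95% interval −0.43 to 0.81) and 0.15 for Bgn (−0.40 to 0.70). These values rested in part on the heart of WT replicate 3. Without it they were 0.36 for Dcn and 0.32 for Bgn, and Lum went from 0.31 to 0.61, Fmod from 0.28 to 0.69, Podn from 0.25 to 0.69, Ogn from 0.05 to 0.24, Prelp to 0.57 and Omd to −0.53, while Aspn turned from −0.17 to 0.04. No member passed there either. Intervals of this width do not show that the genotype difference was the same in both tissues.

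The table of transcripts shows which isoforms carried these genes. The 9 genes have 31 listed transcripts, of which 26 had reads, and Lum, Fmod, Ogn and, at 99.8% or more, Prelp were carried by 1 transcript in every library. For Dcn, 2 transcripts took nearly all counts. ENSMUST00000105287.11 held 55.7% to 66% of Dcn counts in lungs and 70.6% to 75% in hearts, and ENSMUST00000163448.4 held 34.0% to 44.1% in lungs and 25.0% to 29.4% in hearts. The shares of the tissues did not overlap; this pattern was picked after the values were seen and has no test. Both transcripts were lower in the WT lung, by 2.55 (SE 0.19) and 1.72 (SE 0.25), with adjusted p of 2.5e-06 and 0.000312 (limma).

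In all, 6 of 21 member transcripts tested passed between WT lung and heart, 2 higher and 4 lower in the lung, where 26.9% of 43800 transcripts passed, and 7 passed in KO (28.4% of all). In KO the seventh was ENSMUST00000033741.15 of Bgn, higher in the lung by 1.18 (adjusted p = 0.0268, limma). Its share of Bgn counts ran from 49.2% to 91.4% in lungs and from 55.8% to 80.7% in hearts, and the lung of WT replicate 3 gave the low end. Between genotypes no member transcript passed: 0 of 16 in the lung (0.1% of all transcripts), 0 of 18 in the heart (0.0625%) and 0 of 21 for the interaction (0.135%), by limma.

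Podn gave the least even isoform estimates. ENSMUST00000044248.14 was listed at 0 in 3 of 3 WT lungs and took 36.8%, 58.1% and 13.6% of Podn counts in the KO lungs. It passed the filter on low values in the lung only through the KO libraries, so no test of it is given. In hearts it was listed at 0 in WT replicate 2 and in KO replicates 1 and 3, and took 21.9%, 65.6% and 35.8% in WT replicate 1, WT replicate 3 and KO replicate 2. Salmon divides reads among transcripts that share sequence, so a value of 0 need not mean that the transcript was absent, and this transcript is missing from GENCODE vM39. The deposited gene values of Podn, Omd and Bgn also differ from the sums of their transcripts, for Podn by the most in the lung of WT replicate 3, at 7.62 against 6.95. With summed transcripts 0 members passed between genotypes, but the estimates of Podn moved. Its KO minus WT difference in the lung went from 0.346 to 0.604 (adjusted p = 0.829, limma). Its WT lung minus heart difference went from −0.759 to −1.032.

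**Figure D5:**
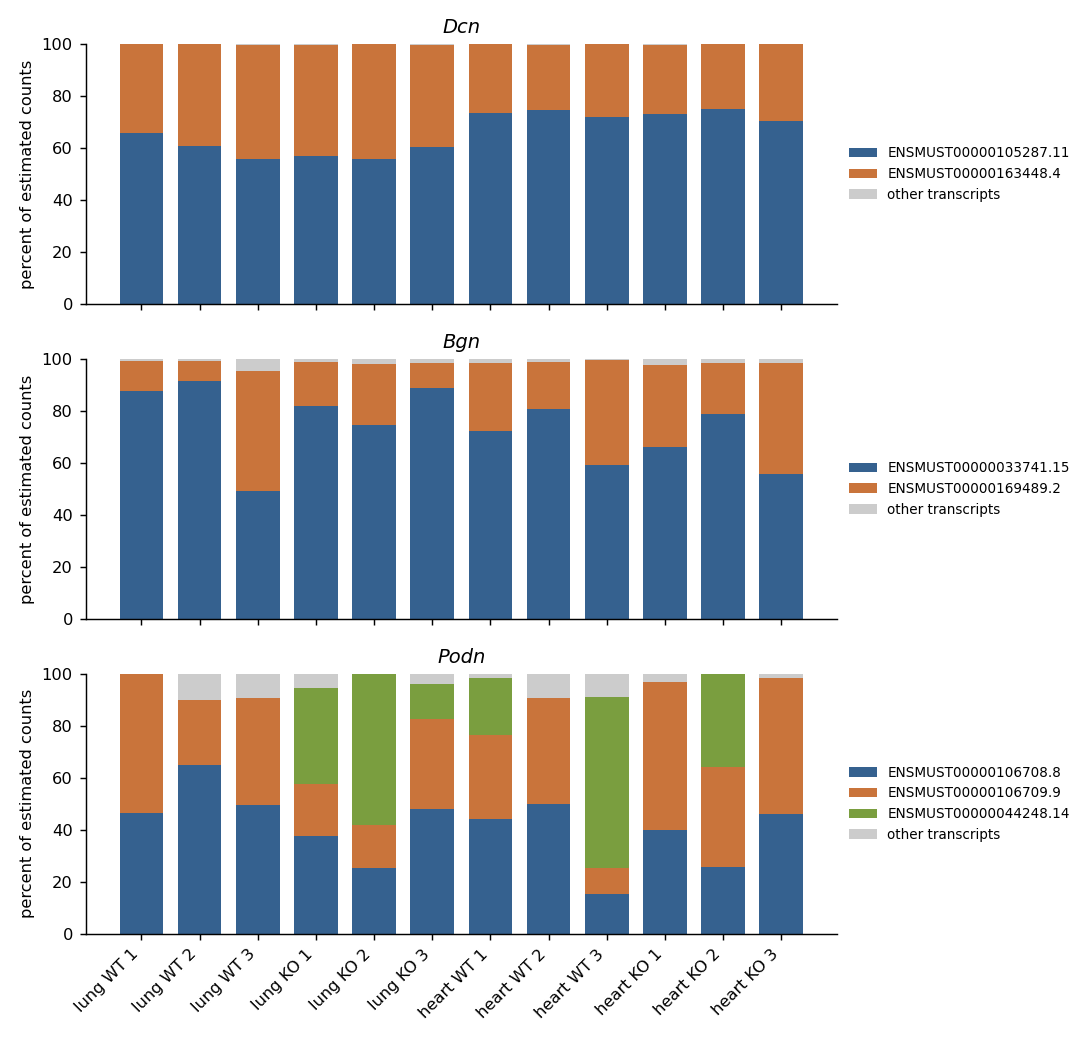
Share of each gene's estimated counts (percent, vertical axis) assigned to its main transcripts in each of the 12 libraries (horizontal axis) for Dcn, Bgn and Podn; grey stands for all other transcripts of the gene. The first Dcn transcript holds 55.7% to 66% in lungs and 70.6% to 75% in hearts, and the third Podn transcript (green) is at 0 in 3 WT lungs and 3 hearts.

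Beyond the 9 genes, the family holds 8 other genes that were examined. Kera, encoding keratocan, was at 0 in all lungs and at most 2.90 in hearts and passed the filter on low values in neither tissue, while Epyc and Optc passed the filter only in the heart and Podnl1 only in the lung. Between WT lung and heart, 2 of the 7 tested passed, both higher in the lung. With median scaling 2 were higher and 1 lower, and with total scaling 2 were higher and 0 lower. Epyc was at 0 to 2.11 in lungs and 2.89 to 5.99 in hearts, and Podnl1 at 4.57 to 5.53 in lungs and 0 to 2.92 in hearts. Both are among the 7, but each entered this fit only through the tissue where it was higher. No test of either is given, and all their values were under the mean of 6 that a pass needed. Chad, encoding the cartilage protein chondroadherin, was higher by 1.90 (SE 0.67, adjusted p = 0.0234, limma). Its WT hearts were at 5.43, 6.01 and 2.87, and without the heart of WT replicate 3 the difference was 0.95 and did not pass (adjusted p = 0.0856). Tsku, encoding tsukushi, a secreted regulator of BMP and Wnt signals, was higher by 1.503 (SE 0.34, adjusted p = 0.00153). In KO they were higher by 2.45 and 2.35. Between genotypes 0 passed in either tissue by limma.

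Genes that build, bind or cut SLRPs were counted by list, beside a background of 29.3% of all genes tested that were higher in the WT lung and 20.1% that were lower. The median difference over all genes was 0.32, and that of a list is given after its count. Of 10 fibrillar and associated collagens, 3 were higher in the WT lung and 0 lower (median 0.10): Col12a1 by 3.83 (SE 0.54), Col6a3 by 2.12 (SE 0.24) and Col6a1 by 0.71 (SE 0.28). With median scaling 2 were higher and 2 lower, and with total scaling 7 were higher and 0 lower. Col1a2 and Col3a1, which encode chains of fibril-forming collagens, did not pass: their WT means were 12.25 and 12.91 in the lung and 12.16 and 13.14 in the heart.

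Of 24 enzymes that make chondroitin, dermatan or keratan sulfate chains, 15 were higher in the WT lung and 0 lower (median 1.36). B3gnt7 and Chst2, which extend and sulfate keratan chains, were higher by 3.91 (SE 0.27) and 3.59 (SE 0.24), and Chsy3 and Chst12, which polymerise and sulfate chondroitin, by 3.40 (SE 0.42) and 2.09 (SE 0.26). Their adjusted p were 4.91e-08, 4.92e-08, 1.24e-05 and 1.18e-05 (limma). Of the 2 tyrosine sulfotransferases, which modify the N termini of several class II members, Tpst1 was higher in the WT lung by 0.86 (SE 0.13) and Tpst2 did not pass.

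Of 17 ligands and receptors, 12 were higher in the WT lung and 1 lower (median 0.93). Itga2, a subunit of a collagen receptor, was higher by 4.02 (SE 0.34), and Met and Tlr2, which decorin and biglycan bind, by 3.94 (SE 0.26) and 2.42 (SE 0.19). Of 12 proteases or protease helpers, 5 were higher and 1 lower (median 0.60): Tll1, Mmp9 and Mmp3 were higher by 2.85, 2.43 and 1.93, and the aggrecanase Adamts5 was lower by 1.097. Of 13 other proteoglycans, 6 were higher and 4 lower (median 0.49), among them Sdc1, higher by 4.32 (SE 0.17), and Gpc1, lower by 4.70 (SE 0.18). Over the 7 lists 44 of 85 genes tested were higher and 6 lower in the WT lung; with median scaling these counts were 40 and 12 and with total scaling 60 and 5.

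Between genotypes none of these genes passed in either tissue. In the lung 0 of 80 passed with limma or limma-voom and 3 had an unadjusted p under 0.05; in the heart 0 of 81 passed with either and 5 had such a p. For the interaction 0 of 85 passed with either and 4 had such a p. Of the collagens, Col1a2 and Col3a1 differed by 0.13 (SE 0.25) and 0.10 (SE 0.37) in the lung and by 0.30 (SE 0.13) and −0.30 (SE 0.15) in the heart. Acan, encoding the large cartilage proteoglycan aggrecan and named after its values were seen, was at 3.67, 4.2 and 3.95 in WT hearts and 5.92, 7.59 and 5.62 in KO hearts (adjusted p = 0.29, limma). In lungs it was at 6.05, 0 and 2.36 in WT and 3.49, 7.64 and 5.79 in KO (adjusted p = 0.839), and the groups overlapped.

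Finally, the members were compared with each other and with the other genes by their pattern over the 12 libraries. After removal of the group means, 29 of 36 pairs of members had a correlation above 0, with a median Pearson r of 0.40; the points share libraries, scaling and the low values of 1 heart. Pairs of other genes were not computed for comparison. The highest were Dcn with Omd (0.84) and Aspn with Ogn (0.79). Fmod with Prelp (0.65), Dcn with Lum (0.61) and Fmod with Podn (0.61) followed. Dcn and Omd lie on different chromosomes, and so do Fmod and Podn. The neighbours Omd and Ogn were at 0.59 and Aspn and Omd at 0.48. Over the raw values, among 13937 genes, the patterns most like Dcn were those of Aldh6a1, Adhfe1 and Chaer1 (r of 0.991 to 0.994), and those most like Lum were Chpt1, Calr3 and Plin4 (0.991 to 0.995). For Prelp they were Ndrg3, Lats1 and Rhbdd1 (0.990 to 0.992), for Ogn Zfp518a and Hltf (0.995 and 0.994), and for Bgn Aph1b, Zfp280c and Manea (0.960 to 0.974).

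The 12 libraries share 2 tissues, and these correlations were not computed with the tissue means removed. Fmod was most like Adamts6, Vps45 and Dhdh (0.937 to 0.970), and Omd most like Angptl4, Ap4m1 and Zfp692 (0.936 to 0.963). Lower values were found for Podn with Osr1, Usp11 and Ppp1r1b (0.832 to 0.890) and for Aspn with Plgrkt, Zfp93 and Mark1 (0.839 to 0.874). No member was among the 3 nearest genes of another.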

How the data were processed

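RNA of whole lung and heart was sequenced in 12 libraries, 1 lung and 1 heart from each of 3 WT and 3 KO mice, so replicates are separate mice. The authors estimated transcript abundance with Salmon against GENCODE transcripts, per the study's methods, and deposited a gene and a transcript table as log2 values. The transcript table holds log2 of 1 plus the estimated count. For most genes with 1 transcript, the gene table differs from it by 1 constant per library. For genes with several transcripts the gene value can differ further from their sum, as for Podn, Omd and Bgn. The submitters' processing notes also name cutadapt, STAR and limma 3.42.2. Library totals (17674788 to 35862932 estimated counts) were recovered from the transcripts. Since the values are on a log scale, the main fits used no count model, and the precision is that of 3 mice per group. The limma-voom alternative used counts recovered from the gene values by removing the constant of each library.

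The log2 gene values were tested with limma 3.58.1 in R 4.3.3, with a variance trend and Benjamini-Hochberg adjustment over all genes tested, and Python 3.11.15 with pandas 2.3.3 made the summaries. Genes needed a deposited log2 value of at least 3.46 in at least 3 libraries. This is a count of 10 only without the library constants, which ran from −0.63 to 0.80. A gene passed with an adjusted p below 0.05, a change of 1.5-fold or more, and a mean of at least 6 in the higher group. Genotype was tested within each tissue, and tissue and interaction in all 12 libraries. The scripts were tested on simulated data. The 9 members and the 7 gene lists were chosen with earlier results of these data known. All members are named, and from each list at most 4 genes per comparison, those past the thresholds with the largest differences or, where none passed, those with the highest means. Acan was named after its values were seen. One gene with a pattern like that of a member is not reported here.

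Lung and heart of 1 mouse share an identifier, which pairs them. Deviations from the group means correlated within mice at 0.05, 0.14 and −0.02 in WT and 0.02, −0.07 and −0.04 in KO over 17666 genes. WT and KO mice of the same number are not paired. Alternatives were other filters and scalings, no variance trend, limma-voom, zeros as missing, summed transcripts, the mouse as a block and leaving out each replicate. Leaving out the heart of WT replicate 3, also for the listed genes that are named, and the coding length were added after seeing the data.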

Additional observations from a re-analysis of the deposited data

How the results depend on the processing

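No member passed between genotypes, or for the interaction, under any alternative run. Counts over all genes moved. In the lung 11 genes became 1 with the filter in every library, 6 with zeros as missing and 6 to 12 with 1 replicate left out. In the heart 13 became 7 with the filter in every library and ranged from 9 to 19 with 1 replicate left out. For the interaction 1 became 0 with median scaling, 2 with total scaling, 2 with the mouse as a replicate block, 5 without the heart of WT replicate 3 and 0 to 7 with 1 mouse left out. The block changed the call of Podn in WT (adjusted p = 0.0229) and of no other member. Total scaling turned the heart difference of Prelp (0.009) and the tissue differences of Aspn in WT (0.69) and KO (0.52) and of Podn in KO (0.23), and without the heart of WT replicate 3 the interaction of Aspn was 0.04. With 1 replicate left out, lung KO minus WT ran from −0.079 to 0.229 for Aspn and −0.16 to 0.47 for Ogn. In the heart it ran from −0.27 to 0.13 for Prelp, −0.005 to 0.33 for Aspn, −0.16 to 0.32 for Lum, −0.32 to 0.36 for Fmod, −0.13 to 0.18 for Ogn and −0.34 to 0.51 for Podn. The interaction ran from −0.016 to 0.367 for Bgn, −0.27 to 0.59 for Ogn, −0.032 to 0.641 for Lum, −0.37 to 0.23 for Aspn, −0.081 to 0.444 for Dcn and −0.13 to 0.48 for Podn, and the WT tissue difference of Aspn from −0.46 to 0.15. The causes were not tested. With 3 mice per group the intervals of the genotype differences reach past 1.5-fold for most members, so changes of that size cannot be told from none.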
